A study of Macaca mulatta and Mus musculus with 5 samples.

Results

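Terminal deoxynucleotidyl transferase (TdT) is encoded by DNTT, written Dntt in the mouse, and its transcript was followed in meningeal cells of 2 species and in macaque spleen. Cells were placed in gates by the UMIs (unique molecular identifiers, counted transcripts) of other genes, never by DNTT itself. Mouse cells with at least 3 Siglech UMIs and no Cd3e formed the Siglech gate, cells with any Cd3e or CD3E UMI formed the CD3E gate used as background, and the remaining cells with an Igll1 UMI (mouse) or a VPREB1 UMI (macaque) formed the B progenitor gate. All other cells were kept as the remaining group. DNTT or Dntt was 1 gene in each species, and it was detected in 1549 of 13267 mouse cells, in 24 of 4029 and 40 of 4269 macaque meningeal cells, and in none of 5839 and 6783 macaque spleen cells, out of 34187 cells in all.

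The mouse data were 1 library of 10x 3′-end single-cell RNA-seq from meninges of male C57BL/6 mice aged 2, 21 and 48 days, pooled after labelling with hashtag antibodies. The count table used here carries no map from cells to ages, so every mouse value is a mixture of the ages. The macaque data were 4 libraries from female Chinese rhesus macaques aged 4 to 8 years, with 2 channels from meninges and 2 from spleen. Nothing in the labels tells if both channels of a tissue came from 1 animal or several, so the spread between channels may be technical. P-values rest on that spread as estimated with information shared over genes, not on the spread of DNTT alone. The sort is written CD45–CD11b– for mouse and CD45–CD11b–CD3– for macaque. Ptprc, which encodes CD45, was detected in 75.6% of the mouse B progenitor gate and 99.7% of the Siglech gate. CD3E UMIs were present in 23.9% and 23.4% of macaque meningeal cells in spite of the CD3– label, and 87.4% and 89.0% of those cells also carried NKG7, a cytotoxic granule gene that natural killer cells share with T cells. The mouse channel was loaded with 30000 cells and the macaque channels with 8000, and median depth was 6394 UMIs per cell in mouse, 4078 and 4024 in macaque meninges, and 2404 and 2668 in macaque spleen. Between 4 and 28 barcodes were shared by any pair of libraries.

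TdT is a DNA polymerase of the X family that needs no template. During V(D)J recombination the RAG1 and RAG2 proteins cut antigen receptor genes, end-joining proteins close the breaks, and TdT adds random N nucleotides at the junctions, which widens the range of receptors. It is known from pro-B cells and early thymocytes, is switched off as B precursors mature, and is largely missing from B progenitors formed before and soon after birth in mice. Transcripts of the gene are also known from lymphoid-primed progenitors that carry the receptor Flt3, and from a portion of mouse plasmacytoid dendritic cells.

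The mouse gene (ENSMUSG00000025014.13) lies on the plus strand of chromosome 19, at chr19:41029275-41059525 of GRCm38 in GENCODE M21. The annotation holds a long coding transcript, Dntt-201, with 12 coding exons and 1590 coding bases, and a short one, Dntt-202, with 11 coding exons and 1530 coding bases. They differ by exon 11 of the long form, a coding exon of 60 bases (20 codons) at chr19:41058567-41058626. Both sequences around that exon are shown because a gene count cannot tell which form a cell made. Each is the transcript strand with 20 bases on either side, and capitals mark the exon that only the long form holds.
Dntt-201: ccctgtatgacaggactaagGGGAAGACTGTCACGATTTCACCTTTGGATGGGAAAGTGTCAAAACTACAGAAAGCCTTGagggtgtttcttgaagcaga
Dntt-202: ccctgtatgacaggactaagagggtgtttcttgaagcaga
The last exon, from position 41059066 to the gene's end, is shared, and 3′-end reads fall mostly there, so all Dntt values below sum the long and short forms. Sequence and coordinates of the macaque gene were not used here, because for those tables a build was not given in the sources used here.

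In mouse meninges Dntt was carried mainly by Igll1-positive cells, at a lower level by Siglech cells, and by a small Flt3-positive set, most of it outside the Igll1 gate. Igll1 encodes the λ5 part of the surrogate light chain, which pro-B and large pre-B cells make. The 2133 cells of the B progenitor gate, 16.1% of the library, held 80.6% of all Dntt UMIs. In that gate Dntt reached 404 CPM, that is 404 Dntt UMIs for every 1000000 UMIs of the gate (95% Poisson interval 397 to 411), and was detected in 790 cells, or 37.0% (exact binomial interval 35.0 to 39.1). All such intervals cover counting error only, and with 1 mouse library no difference between mouse gates was tested. Among Siglech cells Dntt stood at 181 CPM (169 to 193), in the CD3E gate at 37.6 (35.1 to 40.2) and in the other 8534 cells at 21.4 (20.3 to 22.5). These 4 intervals did not overlap, and the Igll1 gate was the highest. Ebf1, a B-lineage transcription factor, was detected in 96.8% of the gate and Rag1 in 56.4%, but the other cells carried them in 91.6% and 42.3%, so these genes say little about the gate's label. Vpreb1, the partner of Igll1 in the surrogate light chain, was found in 67.7% of the gate against 12.9% of other cells, and Ms4a1, a marker of later B cells, in 20.5% against 45.3%.

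**Figure D1:**
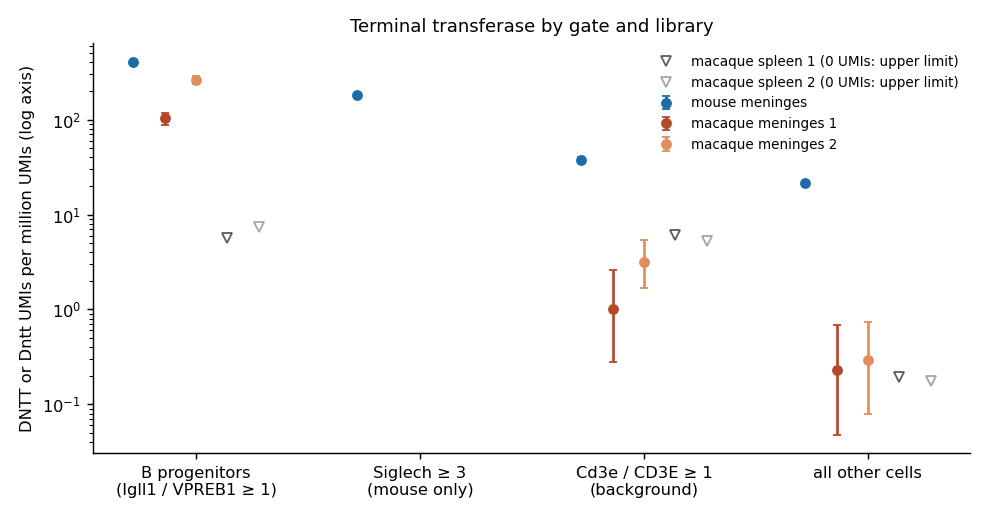
Dntt or DNTT level in each gate of each library, in UMIs per 1000000 UMIs of that gate (CPM) on a log axis; bars are 95% Poisson intervals, which cover counting error only. The mouse B progenitor gate (404) lies above the Siglech gate (181), and the macaque meningeal VPREB1 gates (103 and 259) lie above the CD3E and other gates of the same channels, while spleen had no DNTT UMI and shows only its upper limits.

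Within the mouse B progenitor gate Dntt was detected in more cells at higher Igll1, up to 20 to 49 UMIs. Cells with exactly 1 Igll1 UMI (778 cells) carried Dntt in 6.94% of cases, close to the 4.87% of other cells that had none. Detection was 13.0% at 2 to 4 Igll1 UMIs, 23.8% at 5 to 9, 65.5% at 10 to 19 and 74.4% at 20 to 49. It was 45.0% in the 40 cells with 50 or more. The level did not rise step by step: it was 56.5 CPM at 1 Igll1 UMI, where 1 cell held 156 Dntt UMIs, lower at 2 to 4 (52 Dntt UMIs in 247 cells), 76.2 CPM at 5 to 9, 486 at 10 to 19, 808 at 20 to 49 and 269 at 50 or more. Median depth was 30370 UMIs in that last bin and 10846 in the bin before it, so the lower share occurred in deeper cells. The 944 cells with at least 10 Igll1 UMIs made up 7.12% of the library and held 76.2% of its Dntt UMIs, at 681 CPM. The 1189 gate members below 10 Igll1 UMIs stood at 50.1. This division at 10 and the bins themselves were chosen with the data in view.

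**Figure D2:**
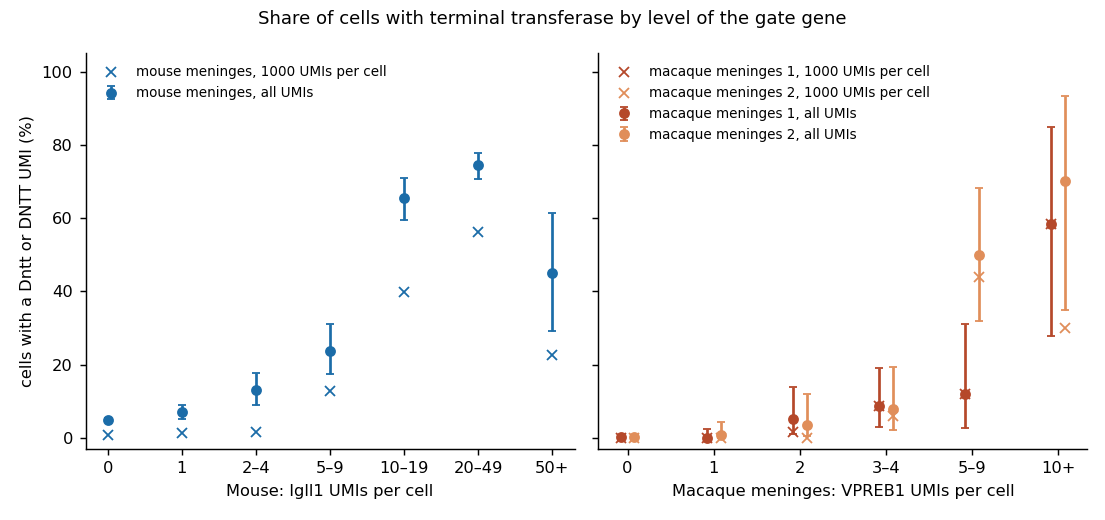
Share of cells with a Dntt or DNTT UMI by the number of Igll1 UMIs (mouse) or VPREB1 UMIs (macaque meninges) in the cell, with 95% exact binomial intervals; crosses give the share after each cell was thinned to 1000 UMIs. Cells with 1 gate UMI lie at 6.94% in mouse and at 0 of 146 and 1 of 125 in the macaque channels. The macaque share reaches 58.3% and 70.0% at 10 or more VPREB1 UMIs (58.3% and 30.0% thinned).

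Among cells with at least 10 Igll1 UMIs, Dntt made up a larger part of the RNA in resting than in cycling cells. The 423 cells outside cycle had a Dntt UMI in 372 cases, 87.9% (84.5 to 90.9), and a level of 1653.1 CPM (1610.5 to 1696.5). The 521 cycling cells had one in 293 cases, 56.2% (51.9 to 60.5), at 450 CPM (439 to 461). Dntt UMIs per cell were close, 13.5 at rest and 12.6 in cycle, while median depth was 7411 and 24467 UMIs. The levels in CPM thus differed while the numbers of Dntt molecules per cell were alike, the cycling cells holding more RNA in total. The cycling cells were also the more divided: of those with Dntt, 234 of 293 had 5 or more UMIs with a median of 18, whereas 43.8% of all cycling cells had none. The whole B progenitor gate gave the same order, with 845 CPM at rest and 280 in cycle.

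**Figure D3:**
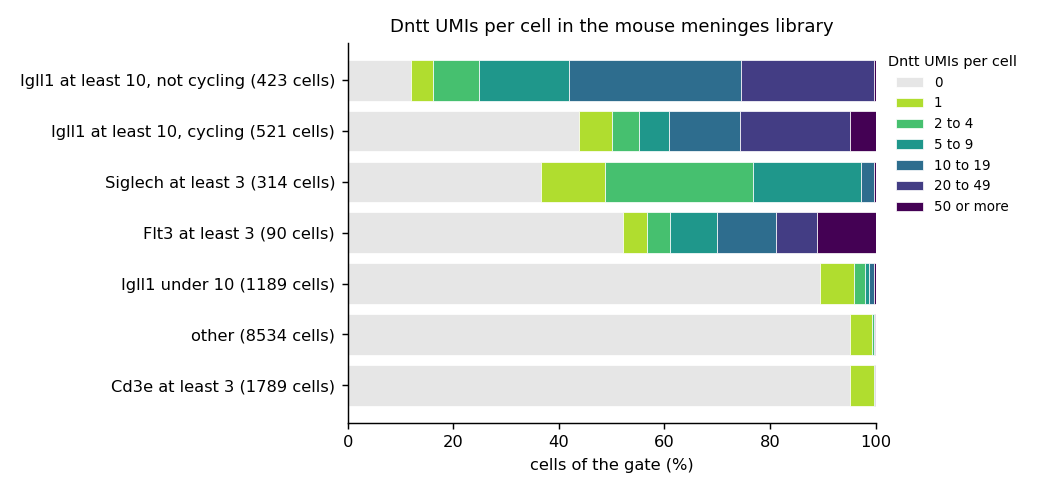
Dntt UMIs per cell in 7 mouse groups, each bar giving the percentage of the group's cells at 0, 1, 2 to 4 or more UMIs (colours). Cells with at least 10 Igll1 UMIs that have the transcript mostly hold 5 or more, Siglech cells have a median of 3 when positive, and the Cd3e and other groups hold mainly single UMIs.

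Among the cycling cells, Dntt was split by several genes of B-cell stage. Of 20 early B-lineage genes with enough cells, it was higher with the gene for 9 and lower for 11, and of 5 stage genes it was lower for 5. Mki67 and Top2a, the genes that define cycling here, are among these 5, so that count is not of B-cell stage alone. The same share over all genes was not taken, here or for the splits below, so such counts are tallies only. Those with Rag1 (287 cells) carried Dntt in 79.8% of cases at 975 CPM, and those without (234 cells) in 27.4% at 94.6. Erg, an ETS-family transcription factor of early progenitors, split them likewise, with 1182.2 CPM in 162 cells that had it and 250 in 359 that did not. Kit, the stem cell factor receptor of pro-B cells, marked cells with 680 CPM against 376. The other direction was seen for Ikzf3, which encodes Aiolos, a factor induced at the pre-B stage: Dntt stood at 53.8 CPM in 184 cells with Ikzf3 and at 835 in 337 cells without. Ms4a1-positive cycling cells were at 140 against 547. Median depth was 38633 UMIs in Ikzf3-positive and 17737 in Ikzf3-negative cells, so the lower detection, 23.4% against 74.2%, was found in the more deeply sequenced cells. In resting cells with at least 10 Igll1 UMIs, Rag1 kept its direction (1824.4 against 578), as did Ikzf3 (802 against 1719.9, with 27 positive cells).

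Genes known from fetal and neonatal progenitors were tabulated because the library pools ages that cannot be separated cell by cell. Lin28b, an RNA-binding protein of fetal-type blood formation, was detected in 35 cycling cells with at least 10 Igll1 UMIs. Of those cells 17.1% carried Dntt, at 69.8 CPM, against 59.1% and 491 in the 486 cells without Lin28b. At rest, Dntt was found in 3 of 12 Lin28b-positive cells and in 89.8% of 411 Lin28b-negative cells. Arid3a, a transcription factor that Lin28b is known to promote, gave 38.5% in 208 cycling cells that had it and 68.1% in 313 that did not. Igf2bp3, an RNA-binding protein of the same fetal programme, gave 51.5% in 340 cycling cells and 65.2% in the rest. Hmga2, a chromatin protein of fetal stem cells, went the other way in cycling cells, with 65.7% against 54.8%. Of 4 such genes with enough cells, Dntt was lower in the positive cells for 3 in cycle and for 4 at rest. Lin28b-positive cycling cells had the larger median depth, 36769 against 23589 UMIs. Cells of 1 library are not replicates, so these splits are descriptions without a test, and the age of each cell was not available to set beside them.

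**Figure D4:**
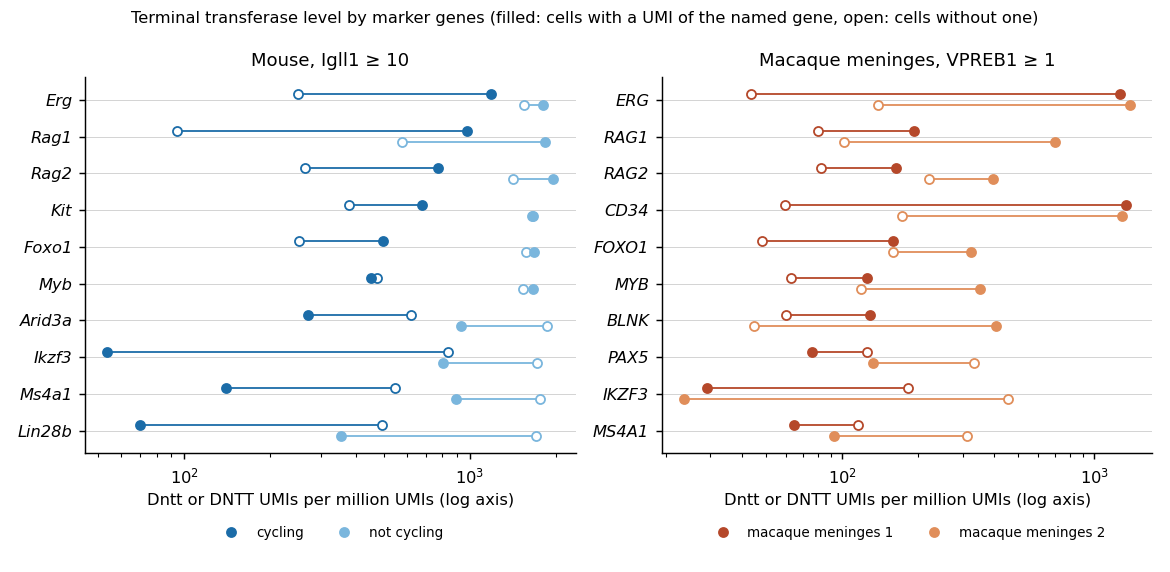
Dntt or DNTT level in cells with and without each marker gene, in CPM on a log axis; filled points are cells with the gene and open points cells without. The left panel holds mouse cells with at least 10 Igll1 UMIs, cycling and not, and the right panel the VPREB1 gates of both macaque meningeal channels; cells with ERG or RAG1 lie higher and cells with IKZF3 lower in each pair.

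Siglech cells showed the transcript in most cells but at few molecules each. The gate of 314 cells, 2.37% of the library, had the markers of plasmacytoid dendritic cells: Bst2 in 97.5% of cells, Ccr9 in 88.2%, Tcf4 in 99.0%, Irf8 in 99.4%, Runx2 in 94.6% and Cox6a2 in 92.0%. Dntt was detected in 199 of them, 63.4% (57.8 to 68.7). Of these 199 cells, 38 had 1 UMI, 88 had 2 to 4 and 73 had 5 or more, with a median of 3, where positive cells of the B progenitor gate had a median of 12. The Siglech cells were the deeper, with a median of 14308 UMIs against 9135. When each cell was thinned to 1000 UMIs the share was 17.8% in the Siglech gate and 23.7% in the B progenitor gate, against 1.44% in the CD3E gate and 0.810% in other cells. The higher unthinned share of Siglech cells thus went against both the level in CPM and the thinned share, and no order is read from it. The thinned Siglech value rests on single UMIs and moved with the random draw, and its expectation over all draws was 15.5%.

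Dntt in Siglech cells came with little Igll1 or Rag1, though not every gene of B progenitors was low. Il7r was in 79.9% of Siglech cells against 78.3% of the B progenitor gate. Vpreb3 was in 40.4% against 97.1%, and Ebf1 in 24.2% against 96.8%. Igll1 was found in 6.69% of the Siglech gate and Rag1 in 6.69%, and 884 Dntt UMIs stood beside 26 Igll1 UMIs and 36 Rag1 UMIs. That is 3400 Dntt UMIs per 100 of Igll1, where cells with at least 10 Igll1 UMIs had 48.8 and the CD3E gate had 66.8. The cells with at least 10 Igll1 UMIs were chosen by that gene, so their low ratio follows in part from the gate. Per 100 UMIs of Rag1, by which none of these gates was drawn, the values were 2455.6, 322 and 163. Leaving out the 21 Siglech cells with any Igll1 left 293 cells with 63.8% detection and 184 CPM. A stricter limit of 10 Siglech UMIs (292 cells) gave 67.5% and 181 CPM, and the most any of those cells carried was 18. In the 22 cells with 3 to 9 Siglech UMIs only 2 had Dntt, and 1 of them held 69 of the 70 UMIs. The 207 cells with 1 or 2 Siglech UMIs had 5.31% detection, near the 4.87% of other cells.

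Inside the Siglech gate Dntt was higher in cells with Il7r or Flt3, though not with early B-lineage genes in general. Of 25 such genes, both receptors included, it was higher with the gene for 10 and lower for 15, among the latter Kit (107 against 189 CPM). Cells with Il7r, the interleukin-7 receptor α chain (251 cells), had Dntt in 67.3% of cases at 200 CPM, and the 63 without it in 47.6% at 101. Flt3, the receptor whose ligand drives dendritic cell formation, gave 66.3% and 187 CPM in the 258 cells that had it, and 28 of 56 cells and 149 CPM in those that did not. Igf2bp3-positive Siglech cells (45 cells) had the lower level, 73.3 against 201 CPM. Cycling and resting Siglech cells lay nearer each other, with 147 CPM in cycle and 201 at rest. In macaque such cells were looked for by CLEC4C, LILRA4, IL3RA and PTCRA, of which the table of channel 1 lists CLEC4C and PTCRA and that of channel 2 PTCRA only. By these, 7 and 6 meningeal cells had a UMI and none of them had DNTT, too few to set beside the mouse gate.

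The remaining mouse Dntt lay in few cells. Of the 8534 other cells 416 had the transcript, 362 of them as a single UMI. The 28 with 5 or more UMIs held 974 UMIs, 70.0% of that group's total, and all 28 carried Flt3 while 27 carried the progenitor antigen Cd34. A gate of 90 cells with at least 3 Flt3 UMIs, fewer than 3 Siglech, at most 1 Igll1 and no Cd3e was therefore drawn after the values were seen. It held 8.61% of all Dntt UMIs, at 467 CPM and 15.4 per cell. Of its cells 18 had 1 Igll1 UMI and so are also members of the B progenitor gate, among them the cell with 156 Dntt UMIs. The 72 without Igll1 held 6.11% of all Dntt UMIs, at 431 CPM with at most 135 in a cell. The level is a description only, since the cells led to the gate.

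What those Flt3 cells shared beyond the choice is shown by their other genes. Kit was detected in 70.0%, Cd34 in 87.8% and Runx2 in 91.1%. Mpo, myeloperoxidase of granulocyte and monocyte precursors, was detected in 73.3%. Dntt was found in 48.1% of the 54 with at least 3 Mpo UMIs and in 47.2% of the 36 with fewer, so detection was alike, although the level was 291 CPM in the former and 903 in the latter. Il7r divided the Flt3 cells more: 22 of 29 cells with Il7r had Dntt, at 1289.4 CPM, against 21 of 61 without, at 99.7. Mpo cells without Flt3, 36 in number, had 3 single Dntt UMIs.

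The CD3E gate in mouse was not a uniform background. Its 838 Dntt UMIs lay mainly in 32 cells with 5 or more, which held 85.6% of them. Of these 32 cells, 24 had exactly 1 Cd3e UMI together with at least 5 of Igll1, and 7 had at least 3 of Siglech. Among 1637 cells with at least 3 Cd3e UMIs and no Igll1, Siglech (under 3) or Flt3, Dntt was at 4.86 CPM, with 71 of 73 positive cells at a single UMI and none above 2. Other cells without Flt3 (8314) were at 6.57 CPM with at most 3 UMIs in a cell. Both restrictions were chosen after seeing the data. A Dntt UMI was thus found in 4.46% of cells that should not make the gene, and the restricted Cd3e level lay far under those of the Igll1 gate (404) and the Siglech gate (181). The other mouse B cells were not restricted by Flt3. Those with at least 2 Cd79a UMIs (1060) stood at 6.43 CPM (4.88 to 8.31), near the restricted Cd3e level (3.82 to 6.09). Ms4a1 cells (3068) stood above it at 12.1 (10.6 to 13.7), with up to 77 UMIs in a cell. Cells with Rag1 but no Igll1 (3611) stood at 24.6, with detection in 5.15%.

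In macaque meninges DNTT lay in few cells, most of which held several molecules. The VPREB1 gate, for the other surrogate light chain gene, held 301 and 275 cells in channels 1 and 2. DNTT was detected in 18 and 30 of them, 5.98% (3.58 to 9.29) and 10.9% (7.48 to 15.2), and the intervals overlapped. The level was 103 CPM (88.5 to 118) in channel 1 and 259 (235 to 285) in channel 2, so the channels differed by more than counting error. The gate held 189 of 196 and 412 of 429 DNTT UMIs, or 96.4% and 96.0%. Positive cells had a median of 9 and 10 UMIs, and 13 and 24 of them had 5 or more. Thinned to 1000 UMIs, detection was 5.33% and 7.30%.

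Little DNTT was found outside the VPREB1 gate. Other meningeal cells gave 3 of 2766 and 4 of 2997 with DNTT, each a single UMI, at 0.232 and 0.291 CPM. The CD3E gate gave 3 of 962 and 6 of 997 at 1.02 and 3.19. DNTT in the VPREB1 gate was 442 times (149 to 2164) and 891 times (345 to 3286.6) the level of other cells, and 100 times (38.5 to 372) and 81.2 times (47.0 to 154) that of the CD3E gate. In a look added after the values were seen, cells with at least 2 NKG7 UMIs and no VPREB1 had DNTT in 4 of 1274 and 8 of 1312, and MS4A1 cells in 1 of 1384 and 1 of 1513, with overlapping intervals.

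The difference within macaque meninges was tested on UMIs summed per channel, with edgeR's quasi-likelihood test and channel as a block. DNTT was higher in the VPREB1 gate than in other cells by 9.18 ± 0.22 on the log2 scale (SE, 2 channels, higher in 2 of 2; edgeR Benjamini-Hochberg adjusted p = 6.23e-24). Other cells held 3 and 4 DNTT UMIs, so the gene passed the low-count filter through its counts in the VPREB1 gate. This p-value thus adds no support to those counts. Of 11101 genes tested in this comparison 48.6% were called in either direction and 22.1% were called higher. The largest adjusted p over its alternatives was 1.03e-05, from the fit without the block. The SE was 0.61 in that fit and 0.60 with DESeq2. With 2 channels the SE of 0.22 rests on spread shared over genes and does not measure how DNTT varied between channels.

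As with Igll1 in mouse, macaque detection was higher in cells with more VPREB1. Cells with 1 VPREB1 UMI had DNTT in 0 of 146 (exact binomial upper limit 2.49%) and 1 of 125. It was found in 3 of 60 and 2 of 58 cells with 2 UMIs, in 5 of 58 and 4 of 50 with 3 or 4, and in 3 of 25 and 16 of 32 with 5 to 9. At 10 or more it was 7 of 12 cells and 7 of 10. Median depth was higher too, 13036.5 and 20380 UMIs at 10 or more against 3492.5 and 3260 at 1. The level did not rise at every step. In channel 1 it was 130 CPM at 3 or 4 and 115 at 5 to 9. In channel 2 it was 929 CPM at 5 to 9 and 566 at 10 or more, where the thinned shares were 43.8% and 30.0%. The cells with 1 VPREB1 UMI, 146 of 301 and 125 of 275, thus held little DNTT, and with a limit of 3 UMIs the level became 194 and 513 CPM.

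Every macaque VPREB1 cell with ERG or CD34 carried DNTT, but not every DNTT-positive cell had these genes: ERG was in 9 of 18 and 16 of 30 of them and CD34 in 5 and 9. All 9 and all 16 VPREB1 cells with an ERG UMI carried DNTT, at 1259.1 and 1386.9 CPM, against 43.4 and 139 in cells without ERG. They held 59.8% and 51.5% of the gate's DNTT UMIs. All 5 and all 9 CD34-positive cells carried it as well, and KIT-positive cells did in 2 of 4 and 4 of 5. At the other end, IKZF3-positive cells carried it in 1 of 128 and 1 of 106, at 29.1 and 23.6 CPM against 183 and 453. RAG1-positive cells had DNTT in 10.6% and 25.6%, RAG1-negative cells in 4.17% and 4.23%. Of 20 early B-lineage genes split in this way, DNTT was higher with the gene in both channels for 14 and lower in both for 3. No share over all genes was taken to set beside these counts. Some of the 14 rest on few cells, with 1 CD93-positive cell in each channel.

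Set beside mouse cells with at least 10 Igll1 UMIs, 23 marker genes could be split in all 3 meningeal libraries. By level in CPM, DNTT or Dntt was higher with the gene in each library for 6 of them (FOXO1, ERG, KIT, BLNK, RAG1 and RAG2) and lower in each for 6 (PAX5, IKZF3, TOP2A, IL2RA, MS4A1 and IGF2BP3), and 11 were mixed. The share of cells with DNTT went the other way for IL2RA in both channels, with 1 of 6 and 2 of 5 positive cells against 5.76% and 10.4% of the rest, and for TOP2A in channel 2, with 17.6% against 9.38%. ERG-positive cells held 51.1% of the mouse group's Dntt UMIs. CD34-positive cells held 44.4% and 38.8% of the macaque gate's DNTT. In mouse 3 of the 944 cells with at least 10 Igll1 UMIs had Cd34, with 0.139% of that group's Dntt UMIs, and 36 of the 2133 cells of the whole Igll1 gate did, 12 of them with Dntt, at 262 CPM against 409 in the rest. The gate limits differ, 10 or 1 Igll1 UMIs in mouse and 1 VPREB1 UMI in macaque, so no difference between the species is read from this. Some of these macaque splits are thin, with 3 and 2 IGF2BP3-positive cells. None was tested, and the shares over all genes were not taken.

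DNTT was not seen in macaque spleen. The gene was not listed in either spleen table, and a table lists a gene only if at least 3 cells have it, so up to 2 cells per channel could have carried it before the filter; it was counted as 0. Over all cells meninges held 10.5 and 22.1 CPM. The lower value was 70.3-fold the floor of 3 counts per spleen library (0.149 CPM, in the shallower channel). That fold is no lower bound, since 2 unlisted cells could together hold more than 3 UMIs. Positive cells of the meningeal VPREB1 gate had a median of 9 and 10 UMIs. DNTT was higher in meninges in 2 of 2 channels (edgeR quasi-likelihood, adjusted p = 4.26e-05). With every channel kept, the largest adjusted p of the alternatives was 0.000219, without the low-count filter. Both spleen values entered as 0 because the gene was unlisted, and it passed the filter through its meningeal counts. The p-value therefore adds no support to the counts. Of 12441 genes tested between the tissues 58.2% were called and 31.1% were called higher in meninges, so a call alone says little here. The share of cells with a DNTT UMI was 0.766% ± 0.241 (SD, n = 2) in meninges and 0 in spleen, with an exact permutation p of 0.333, two-sided, the smallest that 2 against 2 allows. In bulk sums fewer cells of a type and less RNA per cell cannot be told apart.

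Spleen cells with VPREB1 carried genes of later B-lineage cells. The 76 and 86 cells carried MS4A1 in 96.1% and 95.3%, JCHAIN in 88.2% and 77.9%, and RGS13, a germinal centre gene, in 39.5% and 32.6%. RAG1 was in none of them, and most had 1 VPREB1 UMI (59 and 74). The gate is therefore called by its rule in spleen and not by the name of progenitor. Its DNTT was counted as 0. The meningeal gate, at its lower channel, was 17.0-fold the floor of 3 counts per library in the shallower spleen channel (6.02 CPM). Unlisted cells could hold more than 3 UMIs, so this fold is no lower bound either. The test on this gate gave an edgeR adjusted p of 2.94e-06, and 0.00256 with at least 3 VPREB1 UMIs, the largest with every channel kept. In this comparison 35.8% of 7716 genes were called and 18.1% were higher in meninges. Spleen again entered as a filled-in 0, so the p-value adds no support to the counts.

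Of 13 V(D)J recombination and end-joining genes, DNTT included, 9 were higher and 0 lower in macaque VPREB1 cells than in other meningeal cells (7 with DESeq2, without LIG4 and XRCC6), where 22.1% of all genes were higher and 26.5% lower, with a median log2 difference of 0.84 against -0.03 for all genes tested. RAG1, a subunit of the cutting enzyme, stood at 102 and 119 CPM against 14.5 and 12.7 (log2 difference 2.84 ± 0.14, edgeR adjusted p = 2.09e-16). RAG2, the other subunit, was at 53.2 and 44.0 against 4.95 and 3.63. The log2 difference of DNTT, 9.18, exceeded that of RAG1 by more than the SEs of both. HMGB1 and HMGB2, DNA-bending cofactors of RAG and abundant in dividing cells, rose by 1.52 and 2.56 on the log2 scale. DCLRE1C, which encodes the hairpin-opening nuclease Artemis, gave 0.31 (adjusted p = 0.24). Between tissues over all cells RAG1, RAG2 and DNTT were the members higher in meninges, joined by PAXX under RLE scaling, and 5 were lower. Of all genes tested there 31.1% were higher and 27.1% lower. Among VPREB1 cells the same 3 were higher and PRKDC, LIG4 and HMGB2 were lower, where 18.1% and 17.7% of all genes were. DESeq2 did not call PRKDC, LIG4 and HMGB2. RAG1 and RAG2, like DNTT, were unlisted in spleen and counted as 0, so the calls of these 3 between tissues add no support.

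The other X-family polymerases each behaved differently. POLM, the closest relative of TdT, was at 50.5 and 54.7 CPM in macaque VPREB1 cells against 16.9 and 17.7 in other cells (log2 difference 1.43 ± 0.16, edgeR adjusted p = 1.4e-08). POLL, a gap-filling polymerase, was lower (log2 difference -0.72 ± 0.26, adjusted p = 0.0218), a call that DESeq2 did not make. POLB, the base-excision repair polymerase, gave 0.02 (adjusted p = 0.936). Of the TdT partners, DNTTIP1 (0.51, adjusted p = 0.0206) and PCNA (1.89) were higher in VPREB1 cells, and DNTTIP2 (-0.37, adjusted p = 0.000591) and TREX1 (-2.02) were lower; DESeq2 called PCNA and TREX1 of these 4. Of 21 early B-lineage genes tested in that comparison, VPREB1 left out, 15 were higher and 5 lower (12 and 2 with DESeq2), with a median log2 difference of 1.23. ERG was among those higher (5.14 ± 0.49, edgeR adjusted p = 4.98e-10), and KIT and IL7R, which other meningeal cells also carry, were lower. Between tissues 14 of 22 early B-lineage genes were higher in meninges over all cells and 7 lower, where 31.1% and 27.1% of all genes were. In VPREB1 cells 11 of 17 were higher and 2 lower (9 and 1 with DESeq2), where 18.1% and 17.7% of all genes were. Among those higher, RAG1, RAG2, ERG and CD34 had 0 UMIs in spleen over all cells. RAG1, RAG2, MYB and ERG had 0 in spleen VPREB1 cells. Such genes passed the low-count filter through meninges, so their calls add no support to these tallies. Of 6 perinatal progenitor genes 2 could be tested within meninges, and ARID3A was lower in VPREB1 cells (-1.06 ± 0.28, edgeR adjusted p = 0.00226; not called by DESeq2) while IGF2BP3 was not called. Over all cells ARID3A was higher in meninges and IGF2BP3 higher in spleen.

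**Figure D5:**
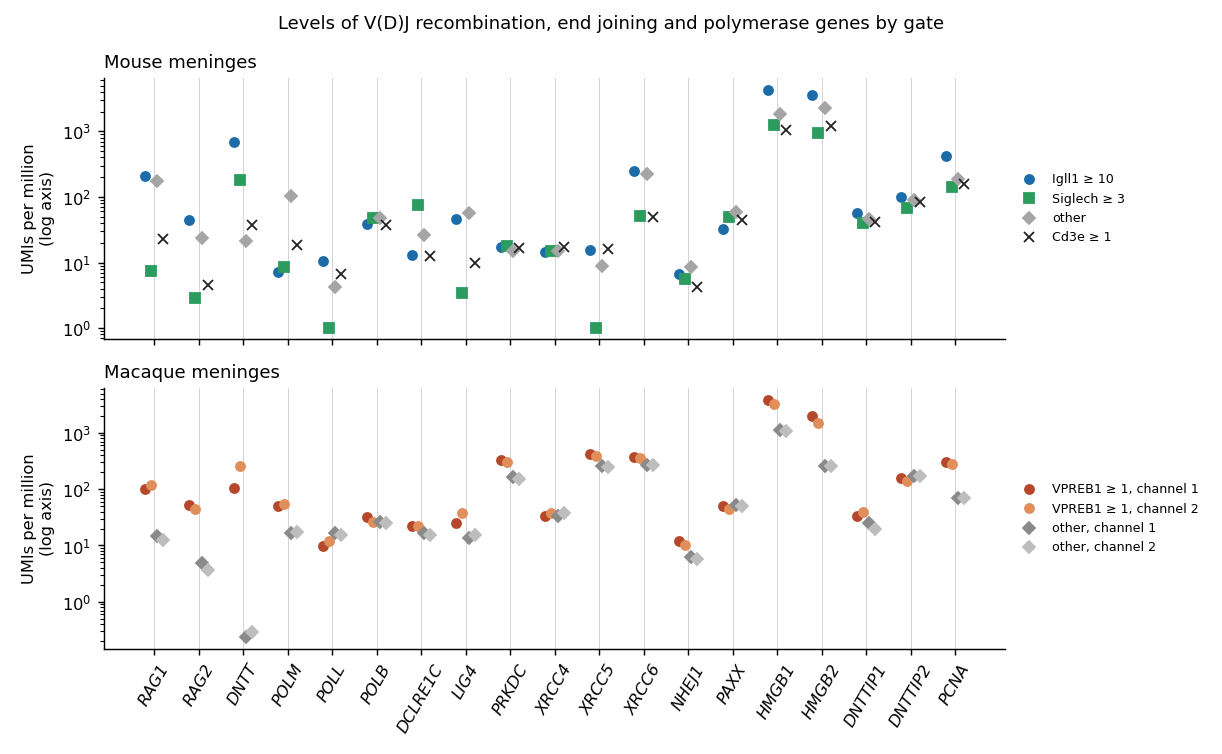
Levels of the V(D)J recombination, end-joining, polymerase X and TdT partner genes, without TREX1, by gate in mouse and in macaque meninges, in CPM on a log axis. DNTT or Dntt shows the widest gap between the B progenitor and other gates among the genes drawn, and mouse Polm is higher in other cells (102) than in cells with at least 10 Igll1 UMIs (7.28).

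In mouse the same genes gave another order for the relative of TdT. Polm stood at 7.28 CPM in cells with at least 10 Igll1 UMIs, 8.6 in Siglech cells and 102 in other cells, the reverse of the macaque gates, although the gates and reference annotations differ between the species. Rag1 was at 212 CPM in cells with at least 10 Igll1 UMIs, 7.37 in Siglech cells and 174 in other cells, so the high Rag1 of other cells came without Dntt (21.4). In Siglech cells Dclre1c was at 75.8 CPM and in 54.5% of cells, above its 13.1 in Igll1 cells, while Lig4 was at 3.48 and Xrcc5 at 1.02. Of the 20 genes, 15 were above the CD3E gate in cells with at least 10 Igll1 UMIs and 8 in Siglech cells. The same share over all genes was not taken, so these counts are not read as a result about the set. Trex1, counted among the 20, had no UMI in any of these gates.

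The genes whose level across gates was most like Dntt's were sought over 12 mouse states with at least 50 cells. Pearson r on log2 levels was 0.937 for Gphn, 0.929 for Arpp21, 0.912 for Ccdc107, 0.910 for Robo3 and 0.887 for Erg, followed by Selenom, Ttll11 and Frmd6 (0.874) among 8282 genes. In macaque, over 9 states in each meningeal channel, KLHDC4 (0.898 and 0.931), ASF1A (0.904 and 0.883) and ESD (0.873 and 0.866) led 7322 genes, followed by FRA10AC1, BCL2L2-PABPN1, PMPCB, ENSMMUG00000052035 and SNRPE (0.888 and 0.810). No gene was in both lists of 8, and Arpp21 ranked 750 in macaque. ERG was not ranked there because it stayed below 20 CPM in each state. States of a library share its depth and preparation, so these correlations are descriptions.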

How the data were processed

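Per the file headers and values, the deposited tables hold raw UMI counts for each gene in each barcode. Cell Ranger and the build mm10 are named for every sample in the submitters' processing notes; for macaque a genome was not given in the sources used here. Total counts were 128091376 UMIs in mouse, 19018146 and 19763332 in macaque meninges, and 20110117 and 21992144 in spleen. A cell was kept if it had 300 genes or more and no more than 10% of its UMIs from mitochondrial genes. Scrublet, run through scanpy 1.11.5, removed 173 mouse and 39 cells in each macaque meningeal channel; it marked 0 in spleen, where it had not worked and none were removed. Cycling cells are those with an Mki67 or Top2a UMI. Shares have exact Clopper-Pearson and levels exact Poisson 95% intervals, for counting error only. Thinned shares use 1000 UMIs per cell, leaving out shallower cells.

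Macaque tests used edgeR 4.0.16 (quasi-likelihood, TMM, filterByExpr) on counts summed per channel, with Benjamini-Hochberg adjustment over all genes and a threshold of 0.05, after a test on simulated data. A gene not listed counted as 0. Alternatives were DESeq2 1.42.0, RLE scaling, no low-count filter, other cell filters, other gate limits, the channel number as a block and leaving out each channel. The genes named are DNTT, the pathway lists, the gate markers and the 8 most like DNTT in each species. Members, lists and gates were chosen with earlier results of these data known. A marker gene is not reported here.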

Additional observations from a re-analysis of the deposited data

How the results depend on the processing

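The 3 DNTT tests kept their direction under every alternative run, and their call under every alternative that kept all channels. Between tissues spleen was a filled-in 0 in each, so there this adds no support. Within meninges DNTT passed the low-count filter, where it was used, through the VPREB1 gate, so the calls add none there either. Leaving out 1 channel gave log2 differences of 10.76 to 11.86 for all cells and 9.63 to 10.91 for VPREB1 cells between tissues. Those fits depend on the prior count, since spleen is at 0. For VPREB1 cells against others the values were 7.54 to 8.71 (no test). They are plain differences of log2 CPM with a prior count added, not edgeR fits, so they cannot be set against the 9.18 of the full fit. Genes called moved from 5399 to 2566 with DESeq2 for VPREB1 cells against others, and for VPREB1 cells between tissues from 2762 to 1380 with DESeq2, 1125 with at least 2 VPREB1 UMIs and 459 with at least 3.

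Channel numbers gave no sign of pairing (deviations correlated at -0.123 over all cells and 0.0133 in VPREB1 cells). With the replicate block the DNTT adjusted p was 4.05e-08 and 9.83e-19, with 7110 and 2796 genes called; without it, VPREB1 cells against others gave 5428 genes. A crossed pairing, added after seeing the data, called 7685 genes over all cells.

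Thinned Siglech shares were 11.9% with all barcodes (15.6% expected over draws), 8.63% with at least 1000 genes and at most 5% mitochondrial UMIs (10.5% expected, 139 cells, 131 CPM), 29.3% at 2000 UMIs and 63.4% unthinned. The Igll1 gate gave 40.6% and 561 CPM at 3 Igll1 UMIs, 49.8% and 681 at 10, 29.0% and 433 under the strict filter, 28.4% at 2000 UMIs and 37.0% unthinned. The mouse CD3E gate gave 0.559% and 9.78 at 3 Cd3e UMIs, 0.550% and 4.86 when also without Igll1, Siglech and Flt3, 2.46% at 2000 UMIs, 6.30% unthinned, and 41.7, 41.9 and 41.8 CPM with all barcodes, the strict filter and no doublet removal. Other mouse cells gave 1.10% with all barcodes, 1.03% without doublet removal, 1.57% at 2000 UMIs and 4.87% unthinned, with 26.1 CPM under the strict filter and 6.57 without Flt3. Macaque VPREB1 cells with at least 3 UMIs gave 15.8% and 194, and 21.7% and 513. In spleen VPREB1 cells 3 counts are 4.64 and 6.02 CPM, which limits what their 0 shows.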
